A study of Mus musculus with 15 samples.

Results

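A set of 10 transcription factors that help build and maintain the cardiomyocyte programme was followed in nuclear RNA of mouse ventricle: Gata4, Gata6, Tbx5, Tbx20, Nkx2-5, Mef2a, Mef2c, Mef2d, Srf and Tead1. They were picked by symbol from the larger deposited table, where they make up 10 of 55536 genes, and all 10 were among the 17455 genes with enough reads to be tested. The zinc-finger proteins Gata4 and Gata6, the T-box proteins Tbx5 and Tbx20 and the homeobox protein Nkx2-5 bind DNA together at heart enhancers and are needed for heart formation. The MEF2 proteins and Srf bind A/T-rich sites upstream of contractile genes and pass on calcium and cytoskeletal signals, and Tead1 recruits the Hippo effector Yap1 to muscle promoters. In the adult heart the same factors keep contractile, ion-handling and metabolic genes expressed.

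The study concerns sex-specific control of heart maturation by the progesterone receptor, Pgr. Nuclei positive for Pcm1, a centriolar satellite protein that marks cardiomyocyte nuclei, were sorted from whole ventricular muscle of Pgr_KO and Pgr_WT mice, and RNA depleted of ribosomal RNA was sequenced with a directional kit. The 15 libraries comprise 4 labelled knockout female (KO F), 4 labelled knockout male (KO M), 3 labelled wild-type female (WT F) and 4 labelled wild-type male (WT M). The tissue label carries "3-6" without a unit, so the age is not given here, and neither is the knockout allele nor whether each replicate is a separate animal. P-values therefore measure only the spread between these samples, which may be technical.

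Total counts were 24.4 to 139.4 M reads per library, with a median of 49.9 M. Reads of Pgr ran against the genotype labels: they were at 8.69 to 12.5 CPM (normalised counts, scaled to library size) in KO F and 6.10 to 7.15 CPM in KO M libraries, against 0 to 0.267 CPM in WT F and 0 to 0.166 CPM in WT M libraries. Genotype is therefore given by label alone, as the libraries labelled knockout or wild type. Cardiomyocyte genes such as Ttn, the giant sarcomere protein, were at 23125 to 41846 CPM over the 15 libraries. Markers of other heart cells separated 6 libraries (KO F 1 and 2, KO M 1 and 2, WT F 1 and WT M 1) from the other 9. The endothelial gene Pecam1 was at 37.0 to 79.5 CPM in these 6 and 2.62 to 8.06 CPM in the 9, and the fibroblast gene Dcn at 81.3 to 328 against 10.8 to 37.6 CPM. Summed leukocyte markers were at 78.0 to 182 CPM in the 6 and 17.3 to 61.6 CPM in the 9. Summed epicardial markers were at 21.2 to 51.0 against 0.472 to 4.77 CPM. Summed mural cell markers overlapped (551 to 662 against 582 to 777 CPM). The mural gene Rgs5 did not, at 29.1 to 80.9 CPM in the 6 and 6.22 to 13.4 CPM in the 9. Nor did the mean log2 level of mural markers, centred over libraries, at 0.458 to 0.930 against -0.989 to -0.0831. KO F 2 and WT F 2 held Y-linked reads and WT M 2 held Xist reads, at 3.07% of the male mean in both female libraries and 3.50% of the female mean in WT M 2.

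In the deposited table (GRCm38) the gene bodies of 9 of the 10 members lie as given here. Gata4 is on chromosome 14 from 63198922 to 63271692 (minus strand), Tbx5 on chromosome 5 from 119832668 to 119885219 (plus strand) and Tbx20 on chromosome 9 from 24718138 to 24774303 (minus strand). The MEF2 genes are Mef2a on chromosome 7 from 67231163 to 67372858 (minus strand), Mef2c on chromosome 13 from 83504034 to 83667080 (plus strand) and Mef2d on chromosome 3 from 88142372 to 88172086 (plus strand). Nkx2-5 is on chromosome 17 from 26838664 to 26845009 (minus strand), Srf on chromosome 17 from 46548329 to 46556175 (minus strand) and Tead1 on chromosome 7 from 112679318 to 112906807 (plus strand).

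The start-site sequences of 4 members are shown because these genes moved apart in pairs across libraries, Srf with Mef2d and Mef2a with Mef2c, as described further on. RefSeq windows (GRCm38.p6) were matched by symbol for 6 of the 10 members (Mef2a, Mef2c, Mef2d, Nkx2-5, Srf and Tbx20). Each line below holds 260 bases, 250 before the start and 10 after it, written 5′ to 3′ on the strand of the gene. Capitals mark the matches to motifs bound by the families studied here.
Srf (chr17:46556153-46556412, minus strand): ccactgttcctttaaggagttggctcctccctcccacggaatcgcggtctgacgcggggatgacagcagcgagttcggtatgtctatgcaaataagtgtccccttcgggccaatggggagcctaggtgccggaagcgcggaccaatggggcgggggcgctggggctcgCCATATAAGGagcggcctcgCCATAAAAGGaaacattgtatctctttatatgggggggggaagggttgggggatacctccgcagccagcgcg
Mef2d (chr3:88142122-88142381, plus strand): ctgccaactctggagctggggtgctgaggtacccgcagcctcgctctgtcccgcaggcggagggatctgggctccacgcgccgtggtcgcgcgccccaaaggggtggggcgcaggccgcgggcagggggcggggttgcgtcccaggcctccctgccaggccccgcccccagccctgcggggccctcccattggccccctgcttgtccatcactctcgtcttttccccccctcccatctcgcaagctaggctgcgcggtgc
Mef2a (chr7:67372849-67373108, minus strand): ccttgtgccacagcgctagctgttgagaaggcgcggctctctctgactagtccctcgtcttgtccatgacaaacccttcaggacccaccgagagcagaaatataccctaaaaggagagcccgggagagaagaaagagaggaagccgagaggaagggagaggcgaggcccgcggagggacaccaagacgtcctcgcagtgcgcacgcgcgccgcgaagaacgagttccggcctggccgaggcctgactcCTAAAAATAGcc
Mef2c (chr13:83503784-83504043, plus strand): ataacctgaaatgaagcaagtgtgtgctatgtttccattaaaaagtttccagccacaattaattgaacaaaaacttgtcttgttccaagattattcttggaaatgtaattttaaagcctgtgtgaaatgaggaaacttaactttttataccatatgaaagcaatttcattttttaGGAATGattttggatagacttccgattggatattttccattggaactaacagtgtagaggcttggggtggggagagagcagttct

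The motifs were searched on both strands of the windows of 300 bases: the CArG box bound by Srf, the MEF2 site, AGATAA for GATA factors, TTAAGTG for Nkx2-5, CATTCC for TEAD proteins and GGTGTGA for T-box proteins. In the windows of members no match overlapped a match to another motif. The CArG box was found in the Srf window, which holds it at both capitalised stretches, and in 1.63% of 32851 windows in all. The MEF2 site lies across the start of Mef2a and is present in 0.557% of windows. The window of the first Mef2c start, 1 of 3 listed for that gene, holds the CATTCC motif on the opposite strand. On either strand, 14.7% of all windows hold it. AGATAA (11.2% of windows), TTAAGTG (2.41%) and GGTGTGA (3.98%) did not occur in these letters in the 8 windows of members. Within the bases shown, G and C made up 60.4% of the Srf stretch, 73.5% of Mef2d, 60.4% of Mef2a and 34.2% of Mef2c. These matches describe the letters alone.

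The members were expressed well above the middle of all tested genes. Since counts cover whole gene bodies with introns, levels between genes were compared as CPM per kb of gene body. Tbx20 had the highest mean at 6.14 ± 0.812 CPM per kb (SD, n = 15), followed by Mef2d at 5.51 ± 1.07, Gata6 at 5.34 ± 0.621, Gata4 at 5.29 ± 0.764 and Mef2a at 4.74 ± 0.912 CPM per kb. Tead1 at 2.46 ± 0.270, Mef2c at 2.36 ± 0.558, Nkx2-5 at 2.01 ± 0.416, Srf at 1.51 ± 0.350 and Tbx5 at 1.41 ± 0.249 CPM per kb formed a lower set. The median over tested genes was 0.420 CPM per kb, and the members lay between the percentiles 80.9 (Tbx5) and 97.5 (Tbx20). Neighbours in this order changed places between libraries, with the upper gene ahead in only 8 to 10 of 15. Exceptions were Mef2a above Tead1 and Nkx2-5 above Srf, which held in 15 of 15 libraries.

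Stability differed among the members. Tead1 varied least, with a coefficient of variation (CV) of 10.96% over the 15 libraries, followed by Gata6 with 11.6%, Tbx20 with 13.2% and Gata4 with 14.4%. Mef2c varied most with 23.6%, followed by Srf with 23.2% and Nkx2-5 with 20.7%. The median CV of tested genes was 22.5%, so 8 members lay below it and Mef2c and Srf above it. By the biological coefficient of variation of edgeR, which removes counting noise and group means, Gata6 stood at the percentile 4.35 of tested genes, Tead1 at 5.67, Tbx20 at 10.7 and Srf at 52.4. With the level of other-cell markers in the fit, as set out further on, these percentiles were higher, at 8.62 for Gata6, 18.6 for Tead1, 27.2 for Tbx20 and 73.6 for Srf, and Nkx2-5 (67.4), Mef2d (63.5) and Tbx5 (52.0) also lay above the middle. The low rank of members thus depends on whether other-cell variation of all genes is in the fit. These percentiles are not matched on level, and most tested genes have fewer reads than the members (median 6.23 CPM, against 11.9 to 671 CPM in means of members). The highest library stood between 1.56 times (Tbx20) and 2.18 times (Srf) the lowest.

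None of the 10 factors passed the test between the genotype labels in either sex, between the sexes under either label, or for the difference of the label effects. The members called number 0 of 10 in each of the 5 comparisons by edgeR's quasi-likelihood test (Benjamini-Hochberg adjusted p below 0.05 over all tested genes), and 0 of 10 had an unadjusted p below 0.05 in each. Over all tested genes the share called was 0% for the label in females, 0.0115% for the label in males, 0% for the difference of the label effects, 0.0229% for KO F against KO M and 0% for WT F against WT M. In the same order, 1.74%, 1.42%, 2.49%, 6.37% and 2.09% of tested genes had an unadjusted p below 0.05. DESeq2 and limma-voom called 0 members as well. The values of members overlapped in every pair of groups, while 1.92% of tested genes did not overlap between KO F and WT F, 1.60% between KO M and WT M, 3.18% between KO F and KO M and 2.95% between WT F and WT M. With so few calls over all genes, a count of 0 says little about these 10, and the intervals below give what the data allow.

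**Figure D1:**
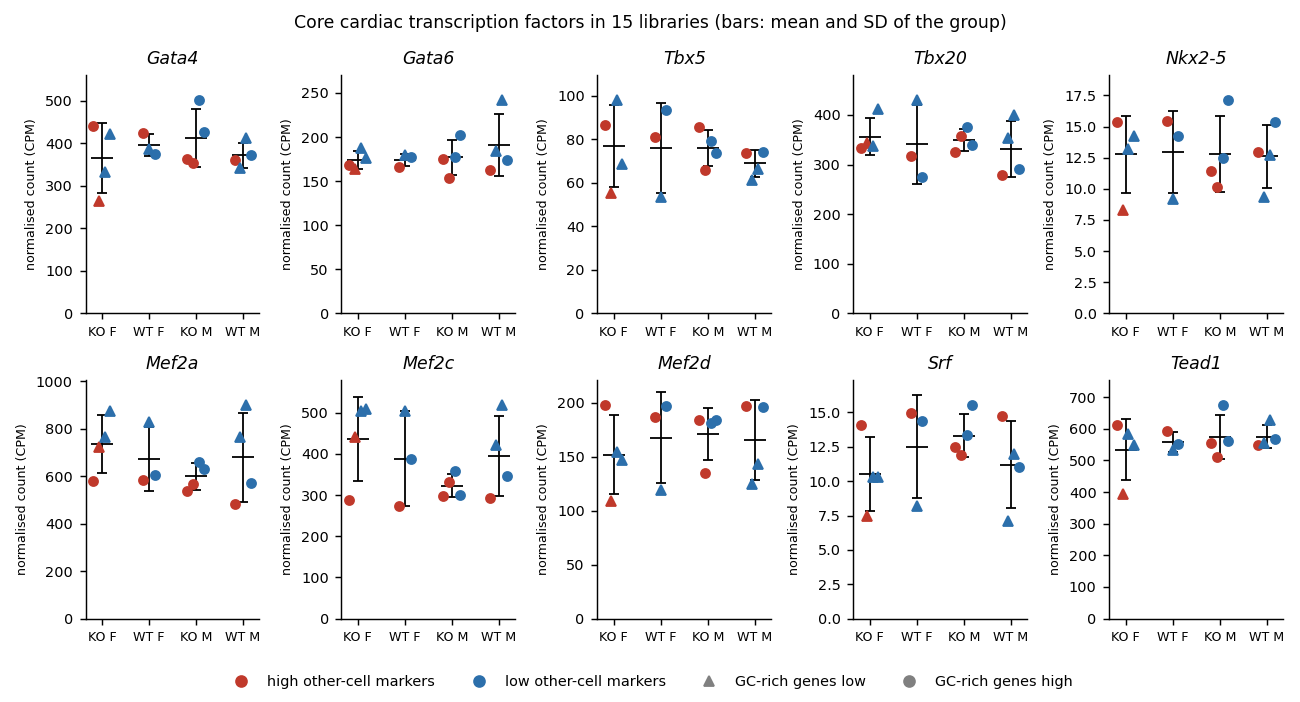
Normalised counts (CPM, y axis from 0) of the 10 factors in each library, by sex and genotype label, with group mean and SD as bars; red marks the 6 libraries with high other-cell markers, and triangles the 6 with low levels of GC-rich genes. The groups overlap for every factor, and in Mef2a and Mef2c the triangles stand above all circles.

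Gata4 and Gata6, whose proteins act in part for each other in the heart, did not differ between the labels beyond the spread of libraries. Gata4 was at 440.3, 265, 333 and 422 CPM in KO F libraries and 425, 387 and 374 CPM in WT F libraries. In males it was at 363, 354, 501 and 427 CPM in KO M libraries and 361, 342, 411 and 372 CPM in WT M libraries. The KO groups held both the lowest (KO F 2) and the highest (KO M 3) value of the 15. The log2 fold change of the knockout over the wild-type label was -0.11 ± 0.17 (SE) in females and 0.15 ± 0.16 in males. Gata6 averaged 174 ± 10.6 CPM in KO F and 174 ± 6.83 CPM in WT F libraries (SD, n = 4 and 3). Its 95% interval of the log2 fold change ran from -0.29 to 0.29 in females and from -0.38 to 0.16 in males, the narrowest of the members in both sexes. Per kb of gene body, Gata4 made up 48.7 ± 5.77% of the sum of both genes in KO F and 51.1 ± 2.59% in WT F libraries. It made up 51.6 ± 3.53% in KO M and 47.6 ± 3.11% in WT M libraries. The difference between labels had a two-sided exact permutation p of 0.571 in females and 0.171 in males. With 4 against 4 libraries in males, 0.0286 is the smallest p the design allows. The smallest p for 4 against 3 libraries in females is not given here.

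The T-box factors Tbx5, needed for conduction and atrial identity, and Tbx20, which maintains adult cardiomyocytes, did not pass the test by label. Tbx5 averaged 76.9 ± 18.9 CPM in KO F and 75.9 ± 20.5 CPM in WT F libraries, and 75.9 ± 8.33 CPM in KO M and 68.9 ± 6.15 CPM in WT M libraries (SD, n = 4, 3, 4 and 4). Tbx20 averaged 357 ± 36.6 CPM in KO F and 341 ± 79.9 CPM in WT F libraries, and 349 ± 22.1 CPM in KO M and 331 ± 56.0 CPM in WT M libraries. The spread of Tbx20 was wide in WT F, with 317, 430 and 275 CPM. Its log2 fold change by label was 0.07 ± 0.16 in females and 0.08 ± 0.15 in males. Nkx2-5, the homeobox partner of Gata4 and Tbx5, averaged 12.8 ± 3.10 CPM in KO F and 12.96 ± 3.31 CPM in WT F libraries, and 12.8 ± 3.05 CPM in KO M and 12.6 ± 2.495 CPM in WT M libraries. The label effects of Nkx2-5 were -0.02 ± 0.25 and 0.02 ± 0.23 on the log2 scale in females and males.

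Of the MEF2 factors, Mef2c had the largest difference between the sexes under the knockout label, which did not pass the test. Mef2c, the MEF2 gene needed in early heart development, was at 289, 441, 504 and 510 CPM in KO F libraries and 299, 332, 359 and 301 CPM in KO M libraries. Only KO F 1 lay below the KO M values. The log2 fold change of KO F over KO M was 0.43 ± 0.22 (95% interval -0.06 to 0.92, adjusted p = 0.757 by edgeR). With the level of other-cell markers as a covariate it was 0.41 ± 0.17 (95% interval 0.04 to 0.79, which leaves out 0, unadjusted p = 0.0283, adjusted p = 0.397 by edgeR). KO F 2, 3 and 4 had low levels of GC-rich genes, a measure described further on, while KO F 1 and all of KO M did not. The comparison therefore does not separate sex from that level. Over 28 alternative settings the log2 fold change ran from 0.15 to 0.65. By label, Mef2c averaged 436 ± 103 CPM in KO F and 389 ± 116 CPM in WT F libraries, and 323 ± 28.7 CPM in KO M and 394 ± 97.7 CPM in WT M libraries. Mef2a, which maintains adult cardiomyocyte function, was at 579, 723, 765 and 873 CPM in KO F libraries and 583, 828.8 and 604 CPM in WT F libraries. In males it was at 535, 569, 660.0 and 632 CPM in KO M libraries and 484, 764, 898 and 570 CPM in WT M libraries. The WT M values spanned those of all other groups. Mef2d, which drives stress-dependent remodelling, averaged 152 ± 36.3 CPM in KO F and 168 ± 42.1 CPM in WT F libraries, and 171 ± 24.1 CPM in KO M and 165 ± 36.8 CPM in WT M libraries. The shares of the 3 MEF2 genes per kb differed between labels by at most 4.88 percentage points in the mean (Mef2d, 39.4% in KO F and 44.3% in WT F libraries). Over 8 exact permutation tests of these shares and that of Gata4, every adjusted p was 0.743.

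Srf, which links actin dynamics to sarcomere genes, had label effects of opposite sign in the sexes, within the spread. Srf was at 14.1, 7.44, 10.3 and 10.3 CPM in KO F libraries and 14.95, 8.20 and 14.4 CPM in WT F libraries. In males it was at 12.5, 11.9, 13.3 and 15.5 CPM in KO M libraries and 14.7, 7.11, 11.95 and 11.05 CPM in WT M libraries. The lowest values were in replicate 2 of KO F, WT F and WT M. The log2 fold change by label was -0.25 ± 0.26 in females and 0.25 ± 0.24 in males, and the difference of the effects was -0.50 ± 0.36. Tead1 averaged 534 ± 96.6 CPM in KO F and 558 ± 31.0 CPM in WT F libraries, and 575 ± 69.5 CPM in KO M and 574 ± 36.3 CPM in WT M libraries. Its label effect was -0.06 ± 0.14 in females and 0.002 ± 0.13 in males.

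**Figure D2:**
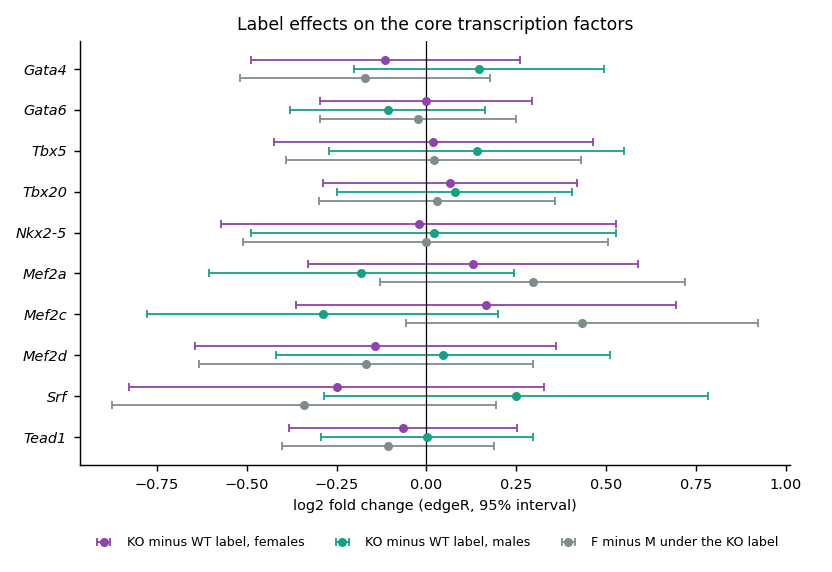
Log2 fold changes from edgeR with 95% intervals (x axis) for each factor, for the knockout over the wild-type label in females and in males and for females over males under the knockout label. Every interval drawn includes 0, and those of Gata6 and Tead1 are the narrowest.

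Genes that work with the 10 factors were not called by label either. Among 19 tested cofactors, 21 tested other cardiac transcription factors, 23 tested target genes and 10 tested paralogues of the same families, 0 were called in each of the 5 comparisons. The median log2 fold change of members was -0.01 in females and 0.03 in males, beside 0.03 and 0.02 over all tested genes. Target genes had a median of -0.19 in females, with 6 of 23 values higher under the knockout label, and 0.17 in males, with 15 of 23 higher. Markers of most other cell types had higher values under the knockout label, with 0 called, and leukocyte markers in males did not. The 15 endothelial markers had a median log2 fold change of 0.64 in females and 0.57 in males, with 15 of 15 values higher in each sex, and the 15 fibroblast markers 0.60 and 0.65, also with 15 of 15 higher. The 10 tested mural markers had medians of 0.20 (7 of 10 higher) and 0.29 (9 of 10), the 7 epicardial markers 0.37 and 1.04 (7 of 7 in each sex), and the 11 leukocyte markers 0.21 in females (8 of 11 higher) and -0.09 in males (4 of 11 higher). The endothelial markers' summed level was 30.2 to 870 CPM in KO F and 58.3 to 525 CPM in WT F libraries, and 42.8 to 482 CPM in KO M and 29.5 to 502 CPM in WT M libraries. The 15 fibroblast markers summed to 93.4 to 2339 CPM in KO F and 172 to 1257 CPM in WT F libraries, and 77.2 to 1234 CPM in KO M and 72.2 to 961 CPM in WT M libraries. Lamc3 was the 1 tested endothelial, fibroblast, mural or leukocyte marker with 0 reads in a library (WT F). Of the epicardial markers, Upk1b and Krt19 had 0 reads in a KO F library. Msln, Upk1b, Krt19 and Lrrn4 had 0 reads in a WT M library. With the marker level as a covariate, 0 of 10 members were called in each comparison, beside 0.00573% of tested genes for the label in females, 0.0115% in males, 0% for the difference, 0.0917% for KO F against KO M and 0.00573% for WT F against WT M.

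Other-cell content was then taken as the mean log2 level of 51 endothelial, fibroblast, mural and leukocyte markers, and its slope was fitted within the groups. Mef2a and Mef2c fell as marker level rose, while several relatives of the factors rose steeply. Mef2a changed by -0.12 ± 0.04 per log2 unit of marker level (SE, adjusted p = 0.0342 by edgeR) and Mef2c by -0.14 ± 0.05 (adjusted p = 0.0354). These 2 of 10 members passed, both lower, where 9.20% of tested genes were called lower, 20.8% higher and 30.0% in all. An unadjusted p below 0.05 was found for 3 of 10 members and 40.2% of tested genes. Members had 8 of 10 values below 0 and a median of -0.06, beside -0.02 over all tested genes. Gata6 had -0.07 ± 0.03 (adjusted p = 0.0583), and the other 7 had values between -0.07 and 0.02 with adjusted p of 0.219 or more. The 14 tested cardiomyocyte genes had a median of -0.06, with 4 called lower. In bulk samples, fewer cells of a type and less RNA per cell cannot be told apart.

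In levels, Mef2a was at 484 to 723 CPM (median 574) in the 6 libraries with high markers and 570 to 898 CPM (median 764) in the 9 with low markers. Mef2c was at 273 to 441 CPM (median 296) in the 6 and 301 to 518 CPM (median 421) in the 9. The ranges overlap for both genes, as they do for each of the 10 members, whereas 14.6% of tested genes do not overlap between these libraries. The calls rested on single libraries and on scaling. Neither gene was called without KO F 1, KO F 4, KO M 1, KO M 3, WT F 1, WT M 1 or WT M 3 (left out 1 at a time), with total-count or cardiomyocyte-gene scaling, or with replicate number as a block, where the adjusted p was 0.0919 for Mef2a and 0.130 for Mef2c. Within the 6 and the 9 libraries apart, 20 correlations of member level with marker level gave no adjusted permutation p below 0.111. That smallest one was Tbx5 in the 6 libraries (Pearson r = -0.946, permutation p = 0.00556, n = 6; Spearman rho = -0.943, permutation p = 0.0167, adjusted p = 0.233), and r was -0.796 over 4 libraries without the 2 farthest.

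Most paralogues of the factors rose with the markers. Of 10 tested paralogues 7 rose with marker level and 0 fell, beside 20.8% of tested genes called higher and 9.20% lower. Their median slope was 0.77. Gata2, a factor of endothelial and blood cells, was at 1.88 to 3.63 CPM in the 6 libraries with high markers and 0.0768 to 0.617 CPM in the 9 with low markers, with a slope of 1.33 ± 0.07. Tead4 was at 2.88 to 4.54 CPM in the 6 and 0.307 to 0.996 CPM in the 9, and Tead2 at 1.15 to 2.02 CPM in the 6 and 0.0256 to 0.244 CPM in the 9. Gata5, expressed in endocardium and epicardium, was at 0.598 to 0.751 CPM in the 6 and 0 to 0.190 CPM in the 9. These 4 paralogues did not overlap between the 6 and the 9 libraries, as for 14.6% of tested genes, whereas Gata4, Gata6 and Tead1 did. Some of their low values rest on fewer than 3 reads, such as Tead2 in KO F 3 (0.0256 CPM, where 3 reads are 0.0709 CPM). Mef2b, Tead3 and Tbx18 had slopes of 0.03 ± 0.06, 0.01 ± 0.06 and 0.10 ± 0.06 and did not pass. Among cofactors, Vgll3, which binds TEAD proteins, rose by 1.23 ± 0.08, while Hdac9, a repressor of MEF2 proteins, fell by 0.13 and Yap1, the partner of Tead1, fell by 0.08. Of 21 other cardiac factors, Nfatc4 (0.90) and Hey1 (0.98) rose, and the thyroid hormone receptor gene Thrb (-0.12) and the metabolic regulator Esrrg (-0.10) fell. Of 23 target genes 5 fell, among them Atp2a2, the calcium pump of the sarcoplasmic reticulum (-0.12 ± 0.03), Slc8a1, the sodium-calcium exchanger (-0.15 ± 0.05), and Ryr2, the calcium release channel (-0.11 ± 0.04). The atrial and conduction connexin gene Gja5 rose by 0.24 ± 0.05.

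**Figure D3:**
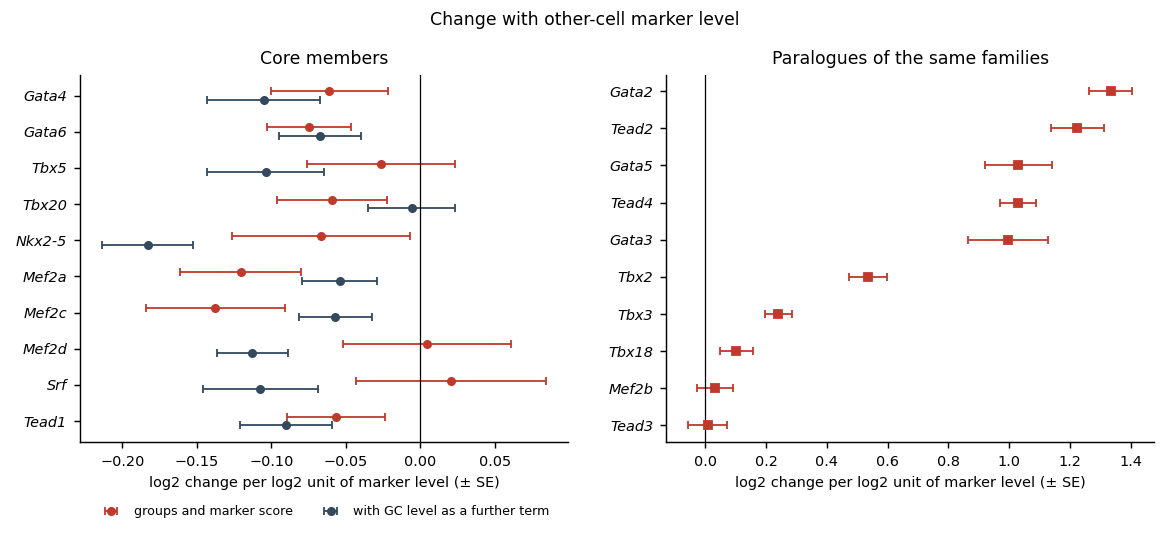
Slopes (log2 change per log2 unit of other-cell marker level, ± SE, x axes on different scales) for the 10 factors, without and with the level of GC-rich genes as a further term, and for the 10 tested paralogues of their families. The members lie between -0.18 and 0.02 and the paralogues between 0.01 and 1.33.

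A second difference among libraries moved members in opposite directions. Genes were ranked by the GC content of their transcripts, and the level of the richest 20% minus that of the poorest 20% was taken in each library, a measure chosen after the values had been seen. It was between -0.65 and -0.29 (log2) in 6 libraries (KO F 2, 3 and 4, WT F 2, WT M 2 and 3) and between 0.08 and 0.50 in the other 9, which include all of KO M. Mef2a was at 723 to 898 CPM in the 6 and 484 to 660.0 CPM in the 9, and Mef2c at 421 to 518 CPM in the 6 and 273 to 387 CPM in the 9. Neither gene overlapped between them, as for 9.49% of tested genes. Mef2d and Srf went the other way, with 109 to 154 CPM in the 6 and 135 to 198 CPM in the 9 for Mef2d and 7.11 to 11.95 CPM in the 6 and 11.05 to 15.5 CPM in the 9 for Srf. In a fit of this measure beside the groups, 5 of 10 members were called, against 29.2% of tested genes. Their slopes were -0.78 ± 0.10 for Mef2c, -0.64 ± 0.10 for Mef2a, -0.41 ± 0.10 for Tbx20, 0.66 ± 0.13 for Mef2d and 0.73 ± 0.17 for Srf. The GC content of their transcripts was 45.3% for Mef2c, 44.4% for Mef2a and 46.0% for Tbx20, against 58.5% for Mef2d and 59.6% for Srf. The other 5 members were not called. Nkx2-5, with the highest GC content of the members at 67.3%, had 0.54 ± 0.20 (adjusted p = 0.0612), while Gata6, with 58.3%, close to Mef2d, had a slope of the other sign, -0.19 ± 0.11 (adjusted p = 0.229). Tbx5 (50.8%) had 0.40 ± 0.17, Gata4 (54.9%) 0.11 ± 0.16 and Tead1 (50.6%) 0.07 ± 0.13. GC content therefore does not order all 10 slopes. The cause of this difference between libraries was not tested.

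With both measures in the fit, the set of members called by marker level changed. Mef2a (-0.05 ± 0.03, adjusted p = 0.106) and Mef2c (-0.06 ± 0.02, adjusted p = 0.0803) no longer passed. Nkx2-5 (-0.18 ± 0.03, adjusted p = 0.000198), Mef2d (-0.11 ± 0.02, adjusted p = 0.00158), Tead1 (-0.09 ± 0.03, adjusted p = 0.0324), Srf (-0.11 ± 0.04, adjusted p = 0.0386) and Gata4 (-0.10 ± 0.04, adjusted p = 0.0404) passed, all lower. All 10 slopes were below 0 in this fit. The members called by marker level therefore depend on whether the level of GC-rich genes is in the model. The common dispersion of edgeR was 0.0210 with both measures and 0.0374 with marker level alone. The share of all tested genes called by marker level in the fit with both is not given here. The count of members called there is therefore not a result about these members.

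**Figure D4:**
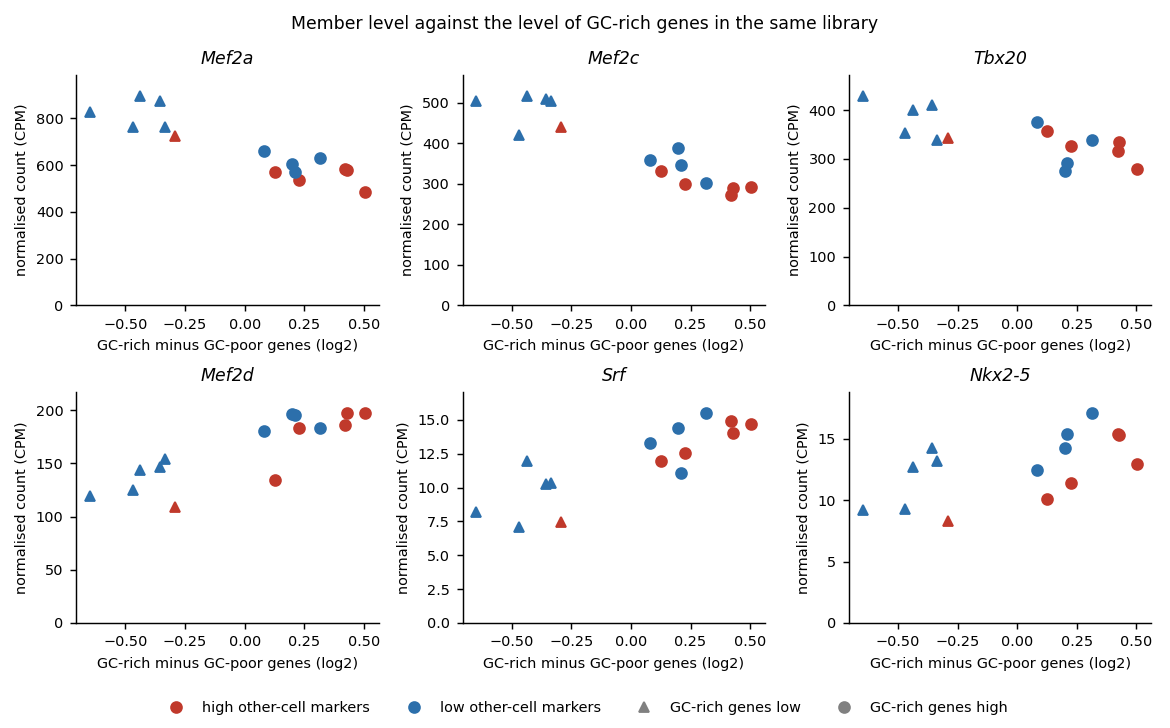
CPM of 6 factors (y axes from 0) against the level of GC-rich minus GC-poor genes in the same library (x axis, log2), in the 15 libraries; colours and shapes as in the plot of values by library. Mef2a, Mef2c and Tbx20 are highest at the left, Mef2d and Srf at the right.

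The 3 libraries with sex-discordant reads, KO F 2, WT F 2 and WT M 2, held the 3 lowest values of Srf, Nkx2-5, Mef2d and Tbx5. All 3 were also among the 6 libraries with low levels of GC-rich genes. The share of all tested genes whose 3 lowest values lie in these libraries was not counted. The mean of the 3 over that of the other 12 was 0.587 for Srf, 0.652 for Nkx2-5, 0.672 for Mef2d and 0.719 for Tbx5. For Mef2c it was 1.24, for Mef2a 1.20 and for Tbx20 1.11. The part of these reads in the values was not tested, and without those libraries the members called by label were still 0 of 10.

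Across the 15 libraries, the members fell into sets that varied together, given here as a description over libraries that share their depth and composition. Mef2a and Mef2c had a Pearson r of 0.907 and Mef2d and Srf of 0.864 in log2 CPM, whereas Mef2c and Mef2d had -0.682. The tested genes most like Mef2c were Ggnbp2 (r = 0.992) and Aasdhppt (0.984), and those most like Mef2a were Nup98 (0.987) and Hdac9 (0.984). Gata4 was most like Pacsin2 (0.975) and Lrrfip1 (0.967), and Srf most like Ap3d1 (0.975) and Napa (0.964). Mef2d was nearest to Leng8 (0.969) and Sympk (0.969), and Tead1 to Rbm20 (0.957) and Cap2 (0.943). For Nkx2-5 they were Rilp (0.931) and Fastk (0.928), for Tbx20 Arhgap12 (0.928) and Zfp932 (0.918), for Tbx5 Tango6 (0.909) and Ighmbp2 (0.909), and for Gata6 Ccdc117 (0.893) and Dnaja2 (0.885).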

How the data were processed

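RNA of sorted Pcm1-positive ventricular nuclei was sequenced in 15 libraries. Per the submitters' processing notes, STAR 2.5.3a and featureCounts 1.5.0 were used with GRCm38 (mm10). The authors deposited gene counts without normalisation. In 100% of genes the listed length spans the whole gene body, so introns are counted. Per the name of the deposited table, read pairs were counted by reverse strand. On the opposite strand Tead1 overlaps 2310014F06Rik (73596 reads in all), Gata6 1010001N08Rik (32244), Mef2a Lysmd4 (6500), Srf Gm26904 (3125) and Mef2d 1700113A16Rik (403), which such counting keeps apart. Every member had at least 215 reads in each library, so counting error is small beside the spread between libraries.

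Counts were analysed in R 4.3.3 with edgeR 4.0.16 (filterByExpr, TMM scaling, robust quasi-likelihood fit with 1 mean per group over 15 libraries). Adjusted p-values are Benjamini-Hochberg values over 17455 tested genes, called below 0.05. Standard errors come from the estimate and its F statistic, and 95% intervals from the t quantile. CPM uses TMM library sizes. A further fit added the other-cell marker level (log2 CPM, prior count 2). Alternatives used DESeq2 1.42.0, limma 3.58.1, other scalings, no filter, a replicate block, fits without each library, fewer libraries, and the GC level, which was added after seeing the data. GC content came from GENCODE transcripts and had a value for 99.97% of tested genes. The fits were tested on simulated counts with the common dispersion for every gene. The test of the label in males called 8% of genes with a true log2 change of 1 and 79% with 2. Of its calls 6.45% were false. The common biological coefficient of variation of the groups fit was 0.403 (as a fraction). The members lay below it, from 14.0% (Gata6) to 27.0% (Srf). The shares of 8% and 79% are therefore not those for the members, which were not simulated. The marker term called 100% at both sizes, with 2.91% false calls.

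The members and gene lists were chosen with earlier results of these data known. Named genes are all members, up to 4 genes of each list with the smallest p, the first gene of each marker list, Pgr, Pcm1 and the 2 genes most like each member. Tbx18, Mef2b and Tead3 were named after their values were seen. Replicate numbers were checked as pairs by the correlation of same-numbered libraries' deviations from group means. It was 0.169 to 0.699 for KO M and WT M, 0.503 to 0.829 for KO F and KO M and 0.179 to 0.842 for WT F and WT M. These all passed the bound of 0.1 set beforehand for a replicate block. For KO F and WT F it was -0.41 to 0.708, which did not. The closest library of the other group had another number for KO F 2 (WT F 1), KO F 1 (KO M 2) and KO F 4 (KO M 3). The same held for KO M 2 (WT M 1), WT F 2 (WT M 3) and WT F 3 (WT M 4). Pairing by replicate number is therefore not established.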

Additional observations from a re-analysis of the deposited data

Results flagged for a closer look

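Of 45 sets of 4 libraries examined, 2 had a library far from the others, where chance flags about 1 in 20. Tbx20 was at 411 CPM in KO F 4, against 334 to 343 CPM in the other KO F libraries. Mef2d was at 135 CPM in KO M 2, against 181 to 184 CPM in the other KO M libraries.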

How the results depend on the processing

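The count of 0 members called by label or sex was the same under every alternative run, and the smallest adjusted p of a member over these was 0.265. By other-cell marker level, 2 members were called. The count was 0 with total counts, with scaling by cardiomyocyte genes, with the 9 low-marker libraries alone, with fibroblast markers alone and with the replicate block. It was 5 with the GC level as a covariate and ran from 0 to 3 when 1 library was left out. The share of all tested genes called in those fits is not given here. These changes in count are therefore not a result about the members. The replicate block gave 0 members by label, so it changed no other call. Over all genes, the marker term called 5233 genes, against 3317 with the replicate block and 263 in the 9 low-marker libraries, where fewer samples were fitted. KO F against KO M called 4 genes, against 57 by DESeq2, 13 with the replicate block and 16 with the marker level. WT F against WT M called 0, against 14 by DESeq2. The label in males called 2, against 4 by DESeq2, and the label in females 0, against 3 by DESeq2. Scaling by cardiomyocyte genes moved the median log2 fold change of all genes by 0.12 for the label in females, 0.20 for KO F against KO M and 0.21 for the difference of the label effects. Elsewhere the cause was not tested. Every member had at least 215 reads in each library. The common dispersion of edgeR was 0.163 with the groups alone and 0.0374 with the marker level in the fit.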
